A study of Mus musculus with 27 samples.

Results

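The genes described here are 10 components of the mammalian circadian clock, Arntl, Clock, Per1, Per2, Per3, Cry1, Cry2, Nr1d1, Nr1d2 and Dbp, in mouse calvarial cells kept in osteogenic culture. They were chosen by symbol from the 37991 genes in the files, each symbol matched 1 gene identifier, and all 10 passed the filter on low counts that left 15659 genes for the straight-line test. The cells came from the calvaria of C57BL/6J-Col3.6 CFP mice 5 to 9 days old, a strain whose transgene puts cyan fluorescent protein under the 3.6-kb fragment of the Col1a1 promoter, active in osteoblasts and their precursors. Fluorescent cells were sorted after 4 days of growth and then kept in medium with ascorbic acid, beta-glycerol phosphate and 10% fetal bovine serum. RNA was sequenced every 2 days from day 2 to day 18, and every group was the same strain, culture and medium, so that the groups differed in day alone as far as the labels state. Each day had 3 profiles that carry 1 barcode and differ in sequencing lane, which were summed to 1 library a day. There was therefore no second library on any day. The fits below measure scatter of the 9 libraries around a smooth course, not spread between cultures. The labels number the profiles as replicates, and the paper calls them triplicate samples. Whether a library pooled more than 1 culture is not stated in the sources used here. The hour of day at collection is not given in the sources used here.

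The clock is a delayed feedback loop of transcription. The proteins of Arntl (also called Bmal1) and Clock bind as a pair to E-box sequences and switch on the Per and Cry genes, whose products enter the nucleus and inhibit that pair. Nr1d1 and Nr1d2 (Rev-erb alpha and beta) are switched on by the same pair and repress Arntl through ROR elements, while the Ror receptors activate it. Dbp is an E-box driven output gene whose protein, with those of Tef and Hlf, binds D-box sequences in further genes, and Nfil3 is the repressor at the same sites. Osteoblasts, like most cells, run such a clock, and cells within a dish drift out of phase unless they are synchronised. Libraries 2 days apart cannot trace a daily rhythm, and a drift over differentiation cannot be told apart from a change in the hour of collection or in the synchrony of the cells.

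The binding motifs that tie these genes to each other are shown first, for the genes that hold an E-box or a D-box just before their start. Sequences were read from RefSeq (GRCm38.p6) as windows of 300 bases, 250 before and 50 after each transcription start, and 9 of the 10 genes had at least 1 window. Each is printed 5′ to 3′ on the strand of its gene, with capitals for the motif. The Per1 stretch holds an E-box (CACGTG) 166 to 161 bases and a D-box (TTATGCAA) 24 to 17 bases before a start, the Per3 stretch holds D-boxes (TTATGTAA) 205 to 198 and 158 to 151 bases before the start, and the Cry1 stretch holds an E-box 60 to 55 bases before the start.
Per1 (chr11:69098768-69098947, + strand): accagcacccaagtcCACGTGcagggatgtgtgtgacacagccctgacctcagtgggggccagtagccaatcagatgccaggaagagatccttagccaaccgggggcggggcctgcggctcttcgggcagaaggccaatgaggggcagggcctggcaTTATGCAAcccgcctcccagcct
Per3 (chr4:151044801-151044885, - strand): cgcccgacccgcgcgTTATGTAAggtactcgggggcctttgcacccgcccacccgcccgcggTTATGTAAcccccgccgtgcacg
Cry1 (chr10:85185094-85185129, - strand): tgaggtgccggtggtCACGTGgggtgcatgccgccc

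Both strands were searched. CACGTG was present in 7.15% of all 32851 promoter windows, TTATGTAA or TTATGCAA in 1.66%, and a ROR element (TAGGTCA or TGGGTCA) in 6.45%. Per3 belonged to the 16 windows, 0.0487% of all, with 2 or more D-boxes. Arntl held a TAGGTCA 31 bases after a start, and none of these letters stood in the windows of Clock, Cry2, Dbp, Nr1d1 or Nr1d2. No window of Per2 was matched. A match in these windows describes the letters and not binding.

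The 10 genes separated into courses that kept climbing, courses that dipped and recovered, and nearly flat courses. Dbp climbed most, Per3 next, and Cry2 and Nr1d2 rose less. Arntl fell slightly, Clock, Per1 and Nr1d1 followed curves, and neither fit called Per2 or Cry1. In a straight line over the days, 5 of the 10 passed an adjusted p of 0.05 (edgeR quasi-likelihood test), against 54.3% of all genes tested. Of these 5, 4 rose against 28.3% of all genes, and 1 fell against 26.1%. A natural spline with 3 degrees of freedom, which also finds rises followed by falls, called 7 of the 10 against 57.5% of the 16256 genes it tested. On simulated data the spline called more unchanged genes than its threshold should allow, and the calls of Clock, Per1 and Nr1d1 rest on the spline alone. The number of clock genes called was thus near the share of all genes that moved in these libraries. Their median line change from day 2 to day 18 was 0.56 on the log2 scale, beside 0.0514 over all genes tested.

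**Figure D1:**
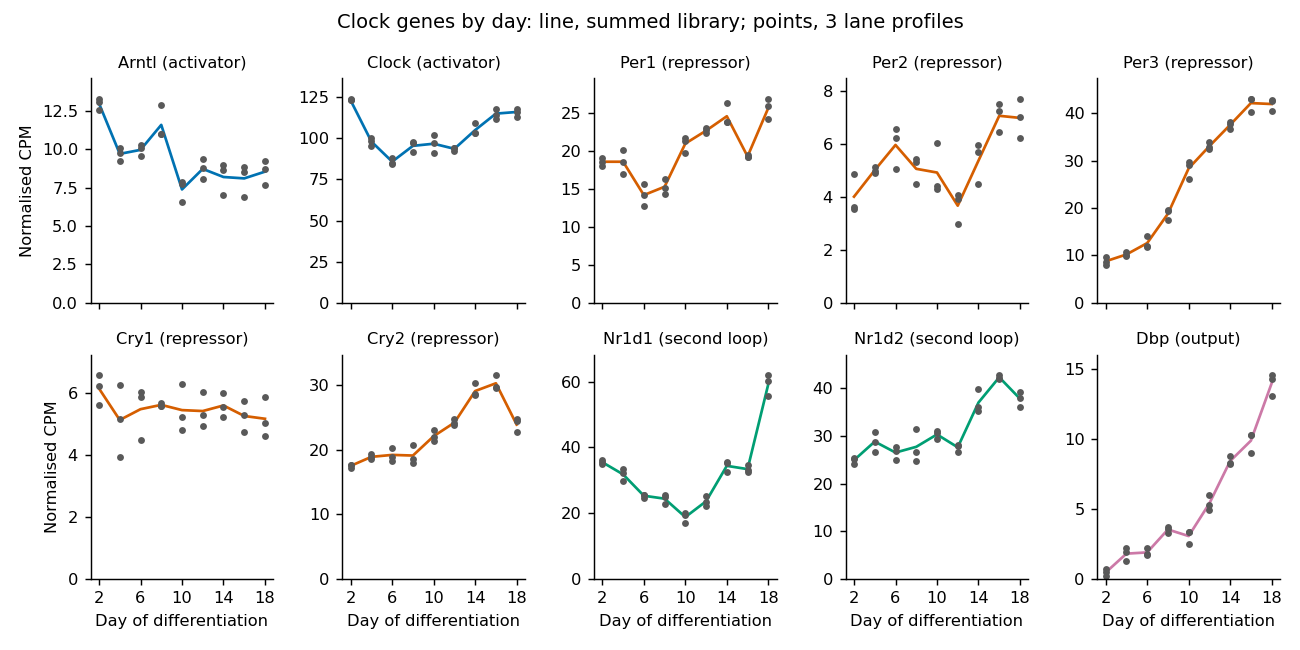
Normalised CPM, a gene's scaled share of reads (y axis of each panel, starting at 0) of the 10 clock genes against the day of differentiation, with a line through the summed libraries and grey points for the 3 lane profiles of a day, which are technical. Dbp climbs from 0.451 to 14.0 and Per3 from 8.76 to 42.0, Nr1d1 has its lowest level on day 10, and Cry1 stays between 5.14 and 6.16.

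Levels within a gene are given as normalised CPM (the share of a library's reads that fall on the gene, with upper-quartile scaling between libraries). Arntl, which encodes the bHLH-PAS activator (NCBIM37 chromosome 7, 120350979 to 120457636), stood at 13.0 CPM on day 2, then at 9.71, 9.97, 11.6, 7.39, 8.73, 8.20, 8.11 and 8.55 CPM on days 4 to 18. The 4 libraries of days 2 to 8 were all above the 5 libraries of days 10 to 18. The line change was −0.57 ± 0.20 (SE) on the log2 scale, adjusted p = 0.0325, and the spline did not pass at adjusted p = 0.0866. Without the day 2 library the line change was −0.39, adjusted p = 0.187. Without day 14, day 16 or the third lane profiles it also missed the threshold, at adjusted p = 0.0597, 0.0652 and 0.0546. The call was also lost with limma on TPM (−0.39, adjusted p = 0.132) and when early days were set against late days (−0.40, adjusted p = 0.103).

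Clock encodes the partner of Arntl (chromosome 5, 76639992 to 76733817). Its levels were 123, 98.0, 85.8, 95.4, 96.7, 93.6, 105, 115 and 116 CPM on days 2 to 18. Day 2 was the highest, day 6 the lowest, and days 14 to 18 lay between them. The line change was 0.10 ± 0.17, adjusted p = 0.632, while the spline passed at adjusted p = 0.0117. Without the day 2 library the line change was 0.39 and passed, adjusted p = 0.0373. Npas2, the paralog of Clock, rose from 0.913 to 7.14 CPM (line change 1.85 ± 0.51, adjusted p = 0.0109), and Arntl2, the paralog of Arntl, fell from 5.01 to 2.24 CPM (−1.72 ± 0.35, adjusted p = 0.00192).

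The 3 Per genes encode repressors of the loop. Per3 (chromosome 4, 150377761 to 150418774), which holds the paired D-boxes printed above, was at 8.76, 10.2, 12.6, 18.8, 28.4, 33.1, 37.6, 42.2 and 42.0 CPM on days 2 to 18. It stepped up in 7 of 8 intervals, beside 6.04% of all genes tested with 7 or more upward steps, and levelled off between days 16 and 18. The line change was 2.57 ± 0.24, adjusted p = 3.59e-05, a fitted 5.93-fold rise, and the spline passed at adjusted p = 9.83e-08.

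Per1 (chromosome 11, 68908719 to 68923462) was at 18.6, 18.6, 14.2, 15.3, 21.0, 22.7, 24.6, 19.3 and 25.7 CPM. Days 6 and 8 were the lowest and days 14 and 18 the highest. Its line change of 0.55 ± 0.22 missed the threshold at adjusted p = 0.0517, and the spline passed at adjusted p = 0.0222. Per2 (chromosome 1, 93312561 to 93355907) was at 4.00, 5.00, 5.95, 5.05, 4.91, 3.66, 5.36, 7.05 and 6.97 CPM, highest on days 16 and 18 and lowest on day 12. Neither its line change of 0.54 ± 0.27 (adjusted p = 0.121) nor the spline (adjusted p = 0.0621) passed.

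A ratio of paralogs within a library does not depend on the scaling between libraries. It was followed for 4 pairs by its slope on day over the 9 libraries. The pairs were chosen after their values were seen, so the slopes are a description with no test. The fitted gain of Per3 on Per1 was 1.99 ± 0.31 (SE) on the log2 scale over the 16 days, and that on Per2 was 2.03 ± 0.49. Per3 was below Per1 in counts on day 2 (log2 ratio −1.08) and above it on day 18 (0.71). With any 1 day left out, the gain on Per1 was 1.76 to 2.39 and that on Per2 1.87 to 2.47.

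The Cry genes encode the other repressors of the loop, the cryptochromes. Cry2 (chromosome 2, 92243803 to 92274200) was at 17.5, 18.9, 19.2, 19.1, 22.1, 24.2, 29.1, 30.3 and 23.9 CPM. It was flat from day 4 to day 8, highest on days 14 and 16, and lower again on day 18. The line change was 0.74 ± 0.16, adjusted p = 0.0032. Cry1 (chromosome 10, 84594447 to 84647799), with the E-box printed above, was at 6.16, 5.14, 5.49, 5.63, 5.46, 5.43, 5.61, 5.27 and 5.18 CPM, and the SD of its libraries around the line was 0.07 log2 units, in the lowest 2.52% of all genes tested. Its line change was −0.12 ± 0.16, adjusted p = 0.555. The fitted gain of Cry2 on Cry1, one of the 4 ratios, was 0.83 ± 0.16 on the log2 scale.

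Nr1d1 and Nr1d2 encode the haem-binding nuclear receptors of the second loop. Nr1d1 (chromosome 11, 98629246 to 98636647) was at 35.5, 31.8, 25.3, 24.4, 18.8, 23.6, 34.4, 33.4 and 59.3 CPM. It fell at each step to day 10 and rose to its highest level on day 18, 3.15 times the day 10 level. A line over all days did not pass (0.58 ± 0.37, adjusted p = 0.21), and the spline did (adjusted p = 0.000141). The day 16 to day 18 step of 0.83 was the largest, and without day 18 the line change, still given per 16 days, was −0.05.

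Nr1d2 (chromosome 14, 19036568 to 19071641) was at 24.9, 28.8, 26.5, 27.7, 30.3, 27.6, 37.0, 42.3 and 37.8 CPM. Its last 3 libraries were above all the earlier ones. The line change was 0.68 ± 0.15, adjusted p = 0.00329. The ratio of Nr1d2 to Nr1d1 had a fitted change of 0.14 ± 0.46, and −0.27 to 0.78 with any 1 day left out. Nr1d1 was 0.53 times its day 2 level on day 10, where Nr1d2 was 1.22 times its own.

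Dbp, the output gene, encodes a PAR bZIP activator (chromosome 7, 52960458 to 52965525). It was at 0.451 CPM on day 2 and at 1.80, 1.89, 3.53, 3.06, 5.40, 8.43, 9.89 and 14.0 CPM on days 4 to 18. The 95% Wilson intervals, which cover counting error only, were 0.285 to 0.695 on day 2, 1.43 to 2.23 on day 4 and 12.9 to 15.2 on day 18. The line change was 4.04 ± 0.40, adjusted p = 4.75e-05, a fitted 16.5-fold rise, and it was larger than that of 95.3% of all genes tested. With lines fitted separately to days 2 to 10 and to days 10 to 18, a division added after the values were seen, Dbp rose by 4.79 per 16 days in the earlier part (adjusted p = 0.0401) and by 4.06 per 16 days in the later part (adjusted p = 0.000264). Of its 8 steps 7 were upward, with day 8 to day 10 the exception. The Wilson intervals of day 8 (2.92 to 4.24) and day 10 (2.42 to 3.89) overlapped.

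**Figure D2:**
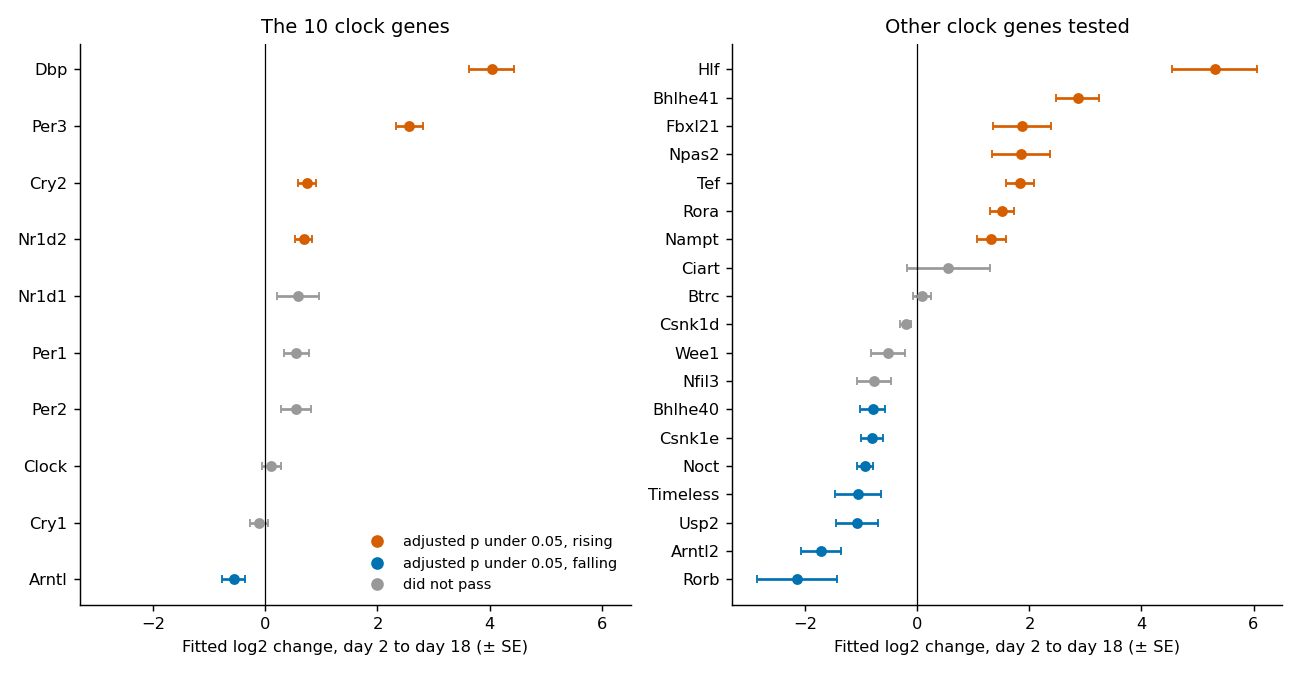
Fitted log2 change from day 2 to day 18 (x axis) with its standard error for the 10 clock genes (left) and the 19 other clock genes tested (right), coloured by whether the edgeR straight-line test passed. Dbp (4.04) and Per3 (2.57) lie apart from the other 8 genes, which lie between −0.57 and 0.74, and Hlf (5.31) is the highest of the right panel.

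Whether the output genes shifted steadily or jumped was read from the steps between neighbouring days, for which 1 library a day allows no test. A step of at least 1 on the log2 CPM scale, that is 2-fold, occurred in 1 of the 10 genes, against 29.9% of all genes tested. With log2(TPM + 1) in place of log2 CPM it was also 1 of the 10, against 11.6% of all genes. The step in log2 CPM was that of Dbp from day 2 to day 4, 1.91 (3.99-fold in CPM), larger than the largest step of 88.9% of all genes. Between those days 10.4% of all genes stepped by 1 or more. The next largest steps of Dbp were 0.89 from day 6 to 8, 0.81 from day 10 to 12 and 0.64 from day 12 to 14. In the other 9 genes the largest were 0.83 for Nr1d1 from day 16 to 18, −0.65 for Arntl from day 8 to 10 and 0.60 for Per3 from day 8 to 10. The median over the 10 genes of the largest step was 0.50, beside 0.584 over all genes.

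**Figure D3:**
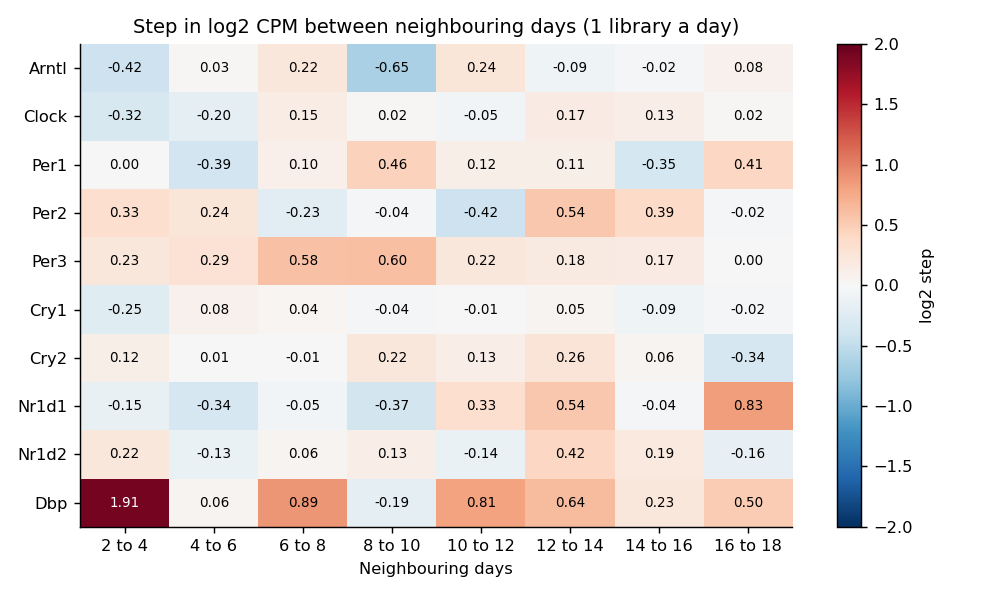
Step in log2 CPM (colour and printed value) of each clock gene (rows) between neighbouring days (columns), with 1 library a day. The day 2 to day 4 step of Dbp, 1.91, is the only one of 1 or more, and Cry1 stays within −0.25 and 0.08.

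Dbp has few counts on day 2, and its rise did not rest on that library. From day 4 to day 18 the level rose 7.78-fold, and without day 2 the line change was 3.55, adjusted p = 5.79e-05. Without day 2 no gene of the 10 had a step of 1 or more, against 27.5% of all genes. Without day 8 there were 2, against 32.8%, since the interval from day 6 to day 10 then counts as 1 step and takes in Per3. At a step of at least 1.5-fold there were 4 of 10, against 49.9% of all genes.

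The partners of Dbp at the D-box also rose over the days. Tef, a PAR bZIP factor like Dbp, was at 17.1, 17.5, 18.2, 28.9, 40.0, 43.7, 48.2, 48.4 and 47.6 CPM (line change 1.84 ± 0.25, adjusted p = 0.000196). It was nearly flat from day 2 to day 6, across the largest step of Dbp. Hlf, the remaining PAR bZIP factor, was at 0.281, 0.941, 1.49, 3.52, 9.29, 11.0, 12.3, 13.3 and 16.0 CPM (5.31 ± 0.76, adjusted p = 0.000283), rising in each of 8 steps. It had 12 counts on day 2, beside 19 of Dbp. Nfil3, the repressor at these sites, was at 17.6, 15.3, 11.1, 6.75, 11.0, 9.41, 11.6, 8.17 and 9.75 CPM. Its line change of −0.77 ± 0.30 missed the threshold at adjusted p = 0.0513, and the spline passed at adjusted p = 0.0124. All 3 PAR bZIP genes therefore rose in the line fit, and the level of Nfil3 was highest on day 2 and lowest on day 8.

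Of 19 other clock genes, all tested, 7 rose, against 28.3% of all genes, and 7 fell, against 26.1%. The other 5 did not pass the line test, and the median line change of the 19 was −0.21. Beside Npas2, Tef and Hlf, those that rose were Bhlhe41 (2.86 ± 0.38), Fbxl21 (1.87 ± 0.52), Rora (1.51 ± 0.21) and Nampt (1.32 ± 0.26). Rora activates Arntl at ROR elements, Bhlhe41 is an E-box repressor, Nampt acts in the making of NAD from nicotinamide, and Fbxl21 binds the Cry proteins for ubiquitylation. Those that fell beside Arntl2 were Rorb (−2.15 ± 0.71), Usp2 (−1.08 ± 0.37), Timeless (−1.06 ± 0.41), Noct (−0.93 ± 0.14), Csnk1e (−0.81 ± 0.20) and Bhlhe40 (−0.80 ± 0.22). Rorb had no more than 97 counts in any library, and 9 on day 18. Csnk1e phosphorylates the Per proteins, and Bhlhe40, the paralog of Bhlhe41, is also an E-box repressor. Ciart, Btrc, Csnk1d, Wee1 and Nfil3 did not pass the test.

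The 3 relations chosen for their place in the loop were read across the 9 libraries, with exact permutation tests adjusted over the 3. Log2 CPM of Arntl and Dbp had Pearson r = −0.725 (two-sided exact permutation p = 0.0354, adjusted p = 0.106) and Spearman rho = −0.600 (exact p = 0.0968, adjusted p = 0.29). Without days 2 and 8, the libraries farthest from the median of Arntl, r was −0.513 (exact p = 0.241). For Arntl and Nr1d1, r was 0.070 (exact p = 0.811, adjusted p = 0.811) and rho 0.150 (exact p = 0.708, adjusted p = 0.708), with r = 0.141 (exact p = 0.769) without days 2 and 8. For Dbp and Nr1d1, r was 0.313 (exact p = 0.401, adjusted p = 0.601) and rho 0.233 (exact p = 0.552, adjusted p = 0.708), with r = 0.402 (exact p = 0.367) without days 2 and 18. None passed the adjustment, and the libraries share the order of days, and genes with a trend over them correlate through it.

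The genes whose course was most like that of Dbp were named by Pearson correlation of log2 CPM over the 9 libraries among 10079 genes of at least 5 CPM on average. The 10 clock genes were left out of this ranking, and among them Per3 had the highest r with Dbp, 0.93. The 8 closest genes were Ctsh (0.989), Pde1a (0.987), Slc38a10 (0.986), 5730469M10Rik (0.986), Cd59a (0.986), Fhod3 (0.985), Tlcd1 (0.983) and Itm2b (0.982). Of the other listed clock genes Rora ranked 10 (0.982), level with Itm2b to 3 digits, followed by Bhlhe41 at 108 (0.955), Hlf at 250 (0.942), Nampt at 560 (0.923) and Tef at 1175 (0.886). The most negative of them were Noct (−0.929) and Csnk1e (−0.838). Ctsh encodes a lysosomal cathepsin and Itm2b a membrane protein, and all 8 had a positive line change, from 0.90 to 3.69.

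Between genes, levels were compared per length, as TPM (the length-corrected share of transcripts) scaled to the upper quartile. By median over the days the order was Nr1d2 (26.9), Nr1d1 (21.6), Clock (20.4), Cry2 (9.88), Per1 (8.89), Per3 (7.99), Dbp (7.7), Arntl (5.48), Cry1 (3.13) and Per2 (1.4). The ranges over the days overlapped between neighbours in this order except at 3 places. Clock (17.9 to 24.4) was above Cry2 (7.23 to 13.8), Arntl (4.13 to 7.28) was above Cry1 (2.91 to 3.31), and Cry1 was above Per2 (1.06 to 2.04). Dbp moved furthest through the order. It was the lowest of the 10 on day 2, at 0.836 TPM, and on day 18, at 33.4 TPM, only Nr1d1 (39.3) and Nr1d2 (38.9) were higher.

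TPM and CPM can part ways, since RSEM divides by an effective length that it averages over the isoforms it infers in each profile. The longest effective length over the days was 1.44 times the shortest for Per1, 1.35 times for Dbp, 1.28 times for Nr1d1 and 1.25 times for Nr1d2, beside a median of 1.08 over all genes. Outside the 10, it was 3.31 times for Hlf, whose TPM peaked at 16.0 on day 8 where its CPM was 3.52, and 5.61 times for Arntl2. Line changes and steps of the clock genes are therefore given in CPM. Marker sums, and Dbp and Per3 where they are drawn beside them, are in TPM.

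**Figure D4:**
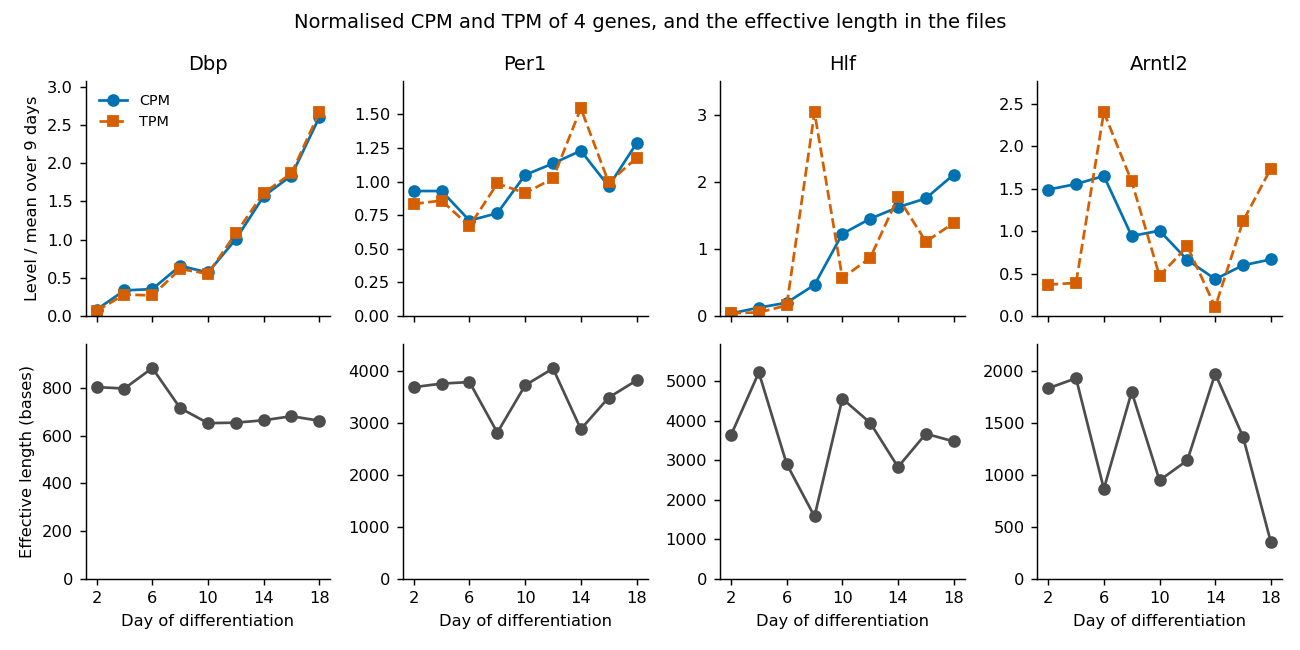
Level relative to the gene's mean over the 9 days in CPM and in TPM (upper panels) and the effective length in bases used for TPM (lower panels), against the day of differentiation, for Dbp, Per1, Hlf and Arntl2. For Dbp the CPM and TPM lines run together, while the TPM of Hlf peaks on day 8, where its effective length is shortest and its CPM shows no peak.

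Some reads of 3 of the 10 genes were divided with another gene, since their exons overlap a gene on the opposite strand and the strandedness of the libraries is not given in the sources used here. Dbp shares 491 exonic bases (16.7% of its own) with Sphk2, Nr1d1 shares 263 (8.42%) with Thra, and Cry2 shares 295 (4.67%) with D930015M05Rik. Sphk2 had a line change of 0.08 (adjusted p = 0.664) over the days in which Dbp rose by 4.04. Thra rose by 2.95 (adjusted p = 0.000354), from 18.9 CPM on day 2 to 104 on day 10 while Nr1d1 fell, and then held between 115 and 125 CPM while Nr1d1 rose. The part of shared reads in these values was not tested.

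The cell type labelled osteoblast was checked against its markers, and markers of other cell types were followed beside Dbp. Of 6 osteoblast markers 4 rose in the line test, in which 28.3% of all genes tested rose and 26.1% fell. The summed level of the 6 went from 1616 upper-quartile TPM on day 2 to 4640 on day 18, most of it Col1a1. Within it Bglap went from 1.24 to 208 TPM, and in CPM from 0.107 to 17.8. Sp7 and Alpl did not pass the line test but passed the spline (adjusted p = 1.16e-05 and 0.00742). From day 2 to day 4, the interval of the largest step of Dbp, Sp7 went from 49.8 to 7.48 CPM, Alpl from 13.9 to 1.1 CPM and Ibsp from 0.703 to 0.115 CPM, while Col1a1 went from 4970 to 6847 CPM. The part of these early shifts in the step of Dbp was not tested. Adipocyte markers summed to 3.21 to 7.44 TPM on days 2 to 6, 6.51 to 103 on days 8 to 12 and 188 to 407 on days 14 to 18, and 5 of 5 rose. Monocyte and macrophage markers summed to 24.1 to 61.7, 68.1 to 451 and 522 to 2013 TPM in the same periods, and 6 of 7 rose. Of 4 endothelial markers 3 were tested, of which 2 rose and 1 fell. The sum of the 4 went from 3.24 TPM on day 2 to 12 on day 14 and 8.84 on day 18. Of the skeletal muscle markers Ckm was at 0 on all days, Myod1 and Myog were at or near 0, and Acta1 fell.

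**Figure D5:**
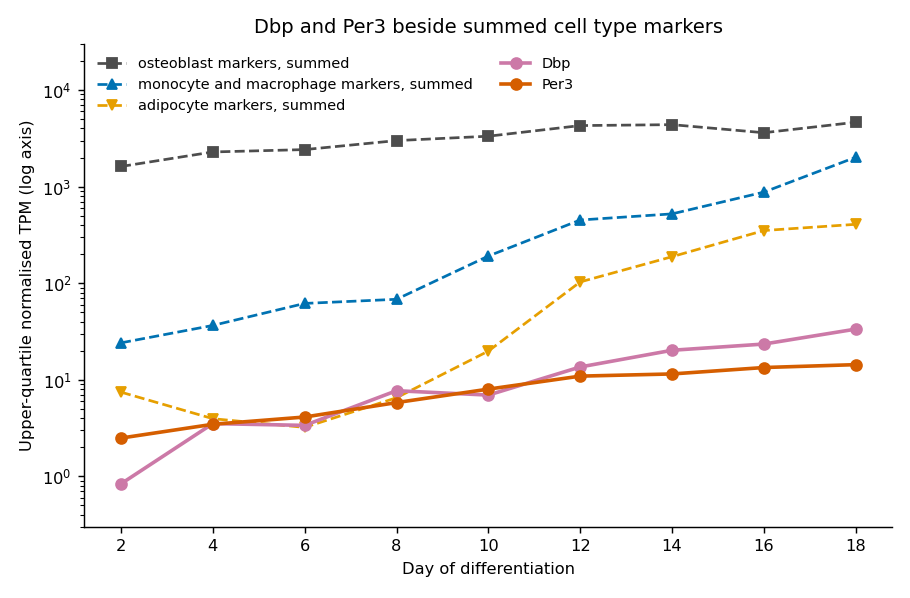
Upper-quartile normalised TPM (logarithmic y axis) of Dbp and Per3 and the summed level of osteoblast, monocyte and macrophage, and adipocyte markers against the day of differentiation. Dbp goes from 0.836 to 3.51 TPM between days 2 and 4, when the adipocyte sum is between 3.21 and 7.44, and all 5 lines are higher on day 18 than on day 2.

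The part of other cell types in the rise of Dbp, Per3, Hlf and Tef was not tested. From day 2 to day 8, over which Dbp rose 7.83-fold, the adipocyte sum went from 7.44 to 6.51 TPM. Within it Pparg went from 5.50 to 4.35 CPM, Adipoq from 0.0937 to 0.256 CPM and Plin1 from 0.0703 to 0.256 CPM. Over the same days the macrophage sum went from 24.1 to 68.1 TPM. From day 8 to day 18, over which Dbp rose 3.97-fold, the adipocyte sum went from 6.51 to 407 TPM. The macrophage sum went from 68.1 to 2013 TPM over those later days. In bulk RNA, more cells of a type and more RNA per cell cannot be told apart.

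Steroid and serum responses, which can reset the clock of cultured cells, were followed as well. Of 7 genes listed for the glucocorticoid response, 4 rose (Tsc22d3, Zbtb16, Klf9 and the receptor gene Nr3c1) and 3 fell (Fkbp5, Sgk1 and Dusp1). Over all genes tested 28.3% rose and 26.1% fell. Zbtb16 had no more than 4 counts in any library from day 2 to day 10, and 32 on day 18. Klf9, which is also a clock-controlled gene, went from 10.8 to 42.4 CPM (2.16 ± 0.24, adjusted p = 7.72e-05). Of 8 serum immediate early genes 1 rose (Fosb) and 3 fell (Jun, Junb and Ier2). A step of 1 or more between neighbouring days occurred in 2 of the 8, against 29.9% of all genes tested. The summed level of the 8 moved between 108 TPM on day 10 and 191 on day 8 without a steady direction.

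The 9 libraries held 22470195 (day 10) to 62009157 (day 12) counts, with a median of 43146793. The 3 lane profiles of a day differed by no more than sampling noise (chi-square per degree of freedom 0.999 to 1.02), so they were counted as 1 library.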

How the data were processed

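RNA was amplified (NuGEN Ovation) and made into TruSeq libraries. Reads were aligned by the authors with Bowtie 0.12.9 to the NCBIM37 transcriptome and quantified with RSEM, version 1.2.8 per the submitters' processing notes. The deposited values are expected counts and TPM per gene. Expected counts of 3 lane profiles were summed per day and rounded, giving 9 libraries. edgeR 4.0.16 (quasi-likelihood test, upper-quartile scaling, low genes removed by filterByExpr at a minimum of 10 counts) fitted day as a line (its slope times 16 days is the line change) or as a natural spline with 3 degrees of freedom, with Benjamini-Hochberg adjustment over all genes. Log2 CPM used a prior count of 2. The deposited TPM, rescaled here to a common upper quartile, was used for levels between genes and marker sums. Correlations used exact permutation tests. The named genes were the 10 clock genes, the listed clock, steroid, serum response and marker genes, and the 8 genes closest to Dbp. Some clock genes are not reported here. The members and lists were chosen with earlier results of these data known. The fitting steps were tested on simulated data. Alternatives were other scalings, filters and prior counts, DESeq2 1.42.0, limma 3.58.1 on TPM, 27 profiles, and leaving out each day or lane.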

Additional observations from a re-analysis of the deposited data

How the results depend on the processing

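Of 357 values recomputed under another setting, 326 had the same sign and the same call, or for counts of genes lay within 1.5 times. The line changes of Dbp (2.97 to 4.38), Per3 (1.95 to 2.86), Cry2 (0.59 to 0.94) and Nr1d2 (0.55 to 0.98) passed in each of 21 such refits. With the 27 profiles as separate samples, 8 of the 10 genes passed the line test, both without and with a replicate block, as did 10754 and 10881 of all genes against 8510 with 9 libraries; the lanes differ by sampling noise alone, so their number adds no cultures. The same-numbered lanes did not deviate together (mean correlation 0.00813). With days 2 to 10 alone, added after seeing the data, 4780 genes passed, among them Dbp, Per3 and Nr1d1. With days 10 to 18 alone 1459 passed, among them the same 3 clock genes, from 5 libraries in each part. The numbers of genes tested in these refits and in those of 27 profiles are not given here. Their counts are therefore not read as shares. Cry2 and Nr1d2 passed in neither part. The sign turned for Arntl (0.22 over days 10 to 18), Clock (−0.62 over days 2 to 10, −0.0015 without day 18) and Nr1d1 (−1.78 over days 2 to 10, −0.05 without day 18). For Clock the line change was at most 0.39 in the planned refits, without day 2, and 0.66 over days 10 to 18. Per1 passed in 6 refits, among them without day 2 (adjusted p = 0.0426). Genes with a step of 1 or more ranged from 0 to 2 of the 10 when 1 day was left out, and were 4 at 1.5-fold. Leaving out 1 day or lane set moved the correlation of Arntl and Nr1d1 between −0.252 and 0.326, that of Dbp and Nr1d1 between −0.101 and 0.660, and that of Arntl and Dbp between −0.860 (without day 10, exact permutation, adjusted p = 0.0302) and −0.455 (without day 2). As residuals from a line in day, r was −0.225 for Dbp and Nr1d1, −0.151 for Arntl and Dbp and 0.548 for Arntl and Nr1d1. The cause was not tested. Among the 10 genes, depth limits Dbp on day 2 most.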
